A study of Mus musculus with 16 samples.

Results

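The genes described here are 30 lysosomal genes, 23 that encode hydrolases or the activator of lipid hydrolases and 7 that encode membrane proteins or cholesterol carriers of the lysosome. They were chosen by gene symbol, as well-known lysosomal genes several of which are known to be abundant in macrophages. The rule itself uses no expression value. All 30 were found among the 25105 genes of the expression table. The cultures were dispersed pancreatic islet cells of Grp78 flox/flox mice, a genotype that every group shared, kept for 72 hours in 15 mM glucose. Ad-LacZ cultures received a control adenovirus and DMSO, Ad-Cre cultures an adenovirus carrying Cre recombinase and DMSO, and the other two groups the same viruses with a JNK inhibitor, JNK-IN-8, in place of DMSO alone. Each group held 4 RNA-seq libraries, 1 per islet preparation (F1, M1, M2 and F2 in the labels), and each preparation carries 2 animal numbers in its label, although the study's methods speak of 4 mice, so whether animals were pooled is not clear. The virus acted on a mixed culture, and each library is the sum over all of its cell types.

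Lysosomes break down proteins, glycans and lipids that reach them by endocytosis, by autophagy and, in β cells, from surplus insulin granules. Most lysosomal enzymes are made in the endoplasmic reticulum, tagged with mannose 6-phosphate and carried to an organelle that the V-ATPase proton pump keeps acidic. Transcription factors of the TFEB family bind CACGTG-type E-box motifs near many of these genes, and macrophages, which digest what they engulf, are rich in lysosomes.

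The depth of the libraries, read from the steps between low values, was 7.72 to 25.5 M reads, and the library with the lowest depth, Ad-Cre + JNK inhibitor F2, was the only one whose column header carries another prefix and lane number. Over these libraries the member with the fewest reads was Sgsh, with 43 to 408. Hspa5, which encodes GRP78 and carries the floxed allele, was at 395 to 483 RPKM (reads per kilobase of exon, scaled to the reads of the library) in Ad-LacZ and at 1107 to 1598 RPKM in the libraries labelled Ad-Cre, and at 348 to 461 and 1202 to 1660 RPKM in the same order with inhibitor. In these files the targeted gene was therefore higher where the label names a knockdown. The study reported a knockdown of Grp78 by qPCR in parallel RNA aliquots, which was not analysed here. A value per gene does not separate the floxed exons from the rest, so that every direction below is that of the libraries labelled Ad-Cre. Insulin and the other 11 β cell markers summed to 33514 to 85282 RPKM over the 16 libraries, and 4 of the 12 were lower in Ad-Cre than in Ad-LacZ (limma, adjusted p), 9 with the preparation as a block. The 20 macrophage markers summed to 104 to 119 RPKM in Ad-LacZ, to 118 to 317 RPKM in Ad-Cre, to 197 to 406 RPKM in Ad-LacZ + JNK inhibitor and to 232 to 380 RPKM in Ad-Cre + JNK inhibitor. The Ad-Cre libraries of M2 and F2 stood apart, with 317 and 274 RPKM of macrophage markers against 118 and 139 RPKM in F1 and M1, and with 2089 and 805 RPKM of 10 stellate and fibroblast markers against 201 and 315 RPKM. Results are therefore also given for F1 and M1 alone where they rest on M2 and F2. In bulk libraries, more cells of a type and more RNA per cell cannot be told apart.

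The 30 genes covered a wide range of levels in Ad-LacZ cultures. Psap, which encodes the precursor of the saposins that help lipid hydrolases reach their substrates, was highest at 519 ± 72.0 RPKM (SD, n = 4). Lamp1, which encodes the main glycoprotein of the lysosomal membrane, followed at 340.4 ± 23.6 RPKM, and the aspartic protease cathepsin D (Ctsd) at 157 ± 21.1 RPKM (SD, n = 4 each). These 3 genes made up 57.0% of the summed RPKM of all 30. Cathepsin B (Ctsb, 101 ± 5.07 RPKM) was the only other gene above 100 RPKM on average, 19 genes lay between 10 and 100 RPKM and 7 lay below 10 RPKM. The lowest were Ctsh, an aminopeptidase-type cathepsin, at 2.49 ± 0.560 RPKM and Cln3, a membrane protein of the endolysosome, at 2.67 ± 0.150 RPKM (SD, n = 4 each). In this order, 22 of the 29 pairs of neighbours overlapped in range, so that the order separates Psap, Lamp1 and Ctsd from each other and from the rest but ranks most of the genes below them only loosely. The coefficient of variation over the 4 Ad-LacZ libraries was 2.62% to 30.5% with a median of 12.1%, and it covers differences between preparations as well as measurement error.

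**Figure D1:**
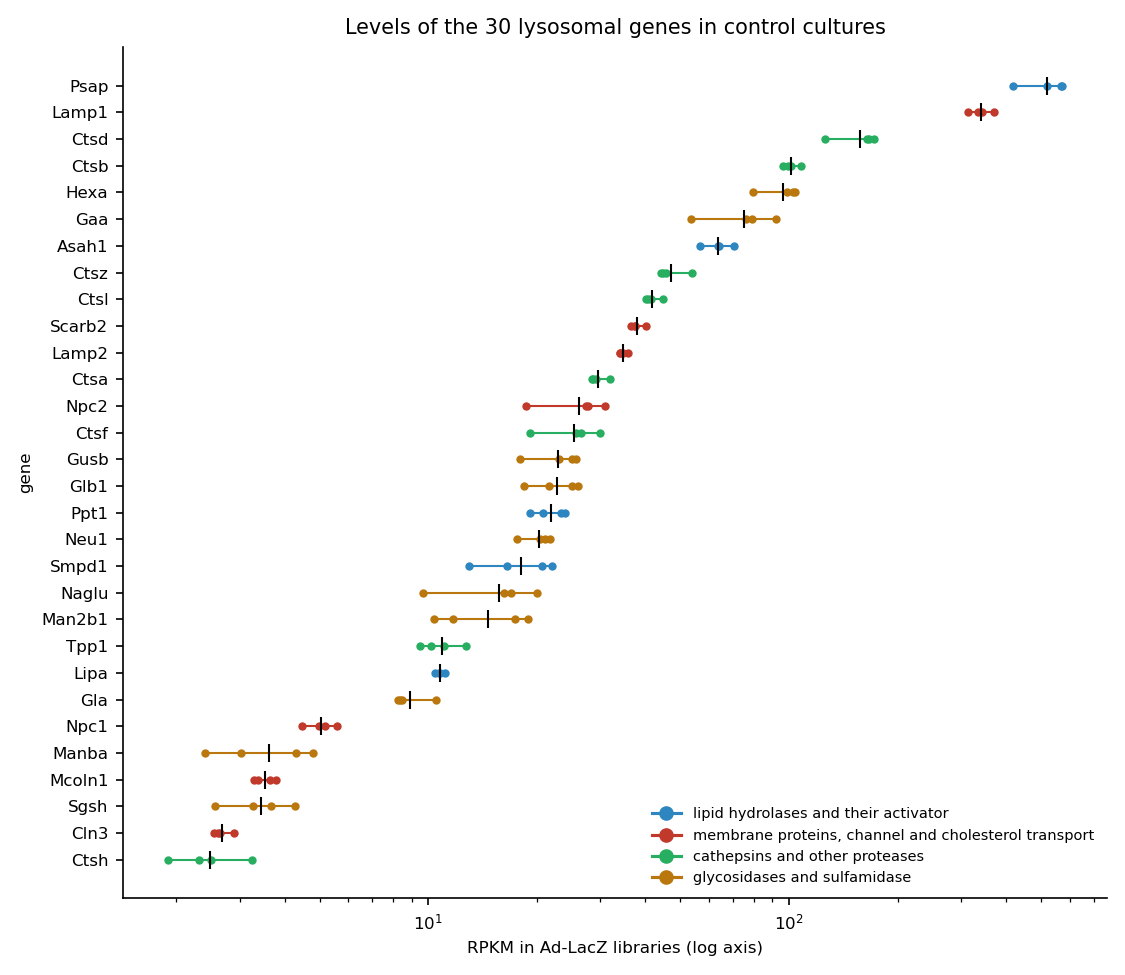
RPKM of each of the 30 lysosomal genes in the 4 Ad-LacZ libraries on a log axis, with points for libraries, lines for the range and ticks for the mean, coloured by role. Psap, Lamp1 and Ctsd lie above all other genes, and from Npc2 down to Man2b1 the ranges run into each other.

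The sequence just before the start of transcription is shown for genes on which the results turn, because many of these genes share a motif there. Of the 30 genes, 26 had a window in the RefSeq promoter table for GRCm38.p6, and Asah1, Ctsb, Ctsh and Npc1 had none. In the 250 bases before the start, the palindromic E-box CACGTG was found in 12 of these 26 genes (46.2%), namely Cln3, Ctsa, Ctsd, Ctsf, Ctsl, Gaa, Gla, Glb1, Lamp1, Mcoln1, Naglu and Sgsh, against 6.86% of all 27025 genes with a window. The longer form TCACGTGA, which contains the E-box, was found in 5 of the 26 genes (19.2%), Cln3, Ctsa, Ctsd, Gla and Mcoln1, against 0.907% of all genes. TGANTCA, with any base at N, is a loose form of the motif of the AP-1 factors that JNK phosphorylates. It was found on either strand in 3 of the 26 (11.5%), Glb1, Neu1 and Psap, against 7.82% of all genes. A match says only that the letters are present. The stretches below are in the direction of transcription, end at the base before the annotated start, and have the E-box in capitals. Ctsd (chr7:142387828-142388077, minus strand) had it 245 and 98 bases before the start, and Gla (chrX:134601006-134601255, minus strand) at 227 and 194 bases. Lamp1 (chr8:13159061-13159160, plus strand) had 4 copies between 61 and 15 bases before the start. Sgsh (chr11:119355511-119355610, minus strand) had 1 copy at 29 bases, and Npc2 (chr12:84773113-84773212, minus strand) had none.
Ctsd: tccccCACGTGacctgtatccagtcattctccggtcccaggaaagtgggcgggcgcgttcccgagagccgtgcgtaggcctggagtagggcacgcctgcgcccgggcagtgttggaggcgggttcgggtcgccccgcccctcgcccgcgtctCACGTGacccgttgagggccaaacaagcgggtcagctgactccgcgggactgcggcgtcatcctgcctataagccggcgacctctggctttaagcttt
Gla: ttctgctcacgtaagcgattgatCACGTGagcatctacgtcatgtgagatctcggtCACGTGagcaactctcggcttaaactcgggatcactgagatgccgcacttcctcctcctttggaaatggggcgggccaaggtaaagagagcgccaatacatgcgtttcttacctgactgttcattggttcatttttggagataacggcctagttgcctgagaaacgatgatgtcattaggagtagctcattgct
Lamp1: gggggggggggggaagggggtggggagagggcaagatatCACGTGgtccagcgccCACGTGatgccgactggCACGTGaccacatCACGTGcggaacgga
Sgsh: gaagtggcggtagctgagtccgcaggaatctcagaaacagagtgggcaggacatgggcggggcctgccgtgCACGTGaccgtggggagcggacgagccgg
Npc2: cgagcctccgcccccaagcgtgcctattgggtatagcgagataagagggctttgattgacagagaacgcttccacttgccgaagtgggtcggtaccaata

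The first comparison asked how the lysosomal genes differed between Ad-Cre and Ad-LacZ cultures without inhibitor. Cathepsin D and α-galactosidase A (Gla), which removes terminal galactose from glycolipids, had the largest rises of the set, and cathepsin Z (Ctsz), cathepsin L (Ctsl) and the cholesterol carrier Npc2 rose by less. With limma on log2(RPKM + 1) after TMM scaling, 5 of the 30 genes were higher and 0 lower at an adjusted p under 0.05, where 8.98% of all 11590 genes tested were higher and 10.3% lower. The median log2 fold change of the 30 genes was 0.08, against 0.01 over all genes, with 20 of the 30 above 0, so that the set as a whole hardly moved while a few of its genes moved far. With quantile normalization 3 were higher and 2 lower, and the median was -0.0079. Within preparations, 11 genes were higher in all 4 preparations, 3 were lower in all 4 (Asah1, Scarb2 and Sgsh) and 16 were mixed.

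Among the proteases, Ctsd was at 166, 172, 165 and 126 RPKM in Ad-LacZ and at 356, 287, 436 and 375 RPKM in Ad-Cre, in the order F1, M1, M2 and F2. Every Ad-Cre library was above every Ad-LacZ library, and it was 1.22 higher on the log2 scale (standard error 0.15, adjusted p = 0.00228, limma), which is 2.32-fold on that scale. Ctsz, a carboxypeptidase, was at 44.1, 44.8, 53.9 and 45.5 RPKM in Ad-LacZ and at 67.9, 58.0, 105 and 73.9 RPKM in Ad-Cre. These groups did not overlap either, and the difference was 0.67 on the log2 scale (standard error 0.14, adjusted p = 0.0159, limma), with adjusted p of 0.074 without F1, 0.0916 without F2, 0.0639 with quantile normalization and 0.0504 with F1 and M1 alone. Ctsl, a cysteine protease, was at 41.5, 40.0, 44.8 and 40.6 RPKM in Ad-LacZ and at 55.5, 45.9, 65.9 and 49.1 RPKM in Ad-Cre. Its change was small, at 0.37 on the log2 scale (standard error 0.11, adjusted p = 0.0495, limma). It missed the threshold without any 1 of the 4 preparations, with adjusted p of 0.112 to 0.157. Of the 10 alternatives tried it passed in 1, the block (adjusted p = 0.0267, limma), and its adjusted p was up to 0.184 in the others.

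Gla was at 8.35, 8.25, 10.5 and 8.44 RPKM in Ad-LacZ and at 19.3, 17.2, 18.3 and 17.0 RPKM in Ad-Cre. The lowest Ad-Cre library was well above the highest Ad-LacZ library, and the rise was 0.96 on the log2 scale (standard error 0.10, adjusted p = 0.00129, limma), or 1.94-fold. None of the other 9 genes in the class of glycosidases and sulfamidase passed. Their log2 fold changes lay between -0.27 for the heparan sulfamidase Sgsh and 0.14 for the sialidase Neu1. Npc2, which hands cholesterol to the membrane protein Npc1, was at 31.0, 27.7, 27.3 and 18.7 RPKM in Ad-LacZ and at 46.5, 36.8, 44.2 and 38.7 RPKM in Ad-Cre. The groups did not overlap, with a log2 fold change of 0.68 (standard error 0.17, adjusted p = 0.0247, limma), and the adjusted p rose to 0.0731 without M1, 0.0786 without M2 and 0.0723 without F2, to 0.0685 with no filter and to 0.0721 with F1 and M1 alone. Npc1 itself was at 5.05 ± 0.464 and 6.17 ± 0.730 RPKM (SD, n = 4 each), with an adjusted p of 0.0807 from limma.

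The 2 most abundant genes of the set did not pass. Psap was at 567, 572, 519 and 417 RPKM in Ad-LacZ and at 655, 592, 573 and 544 RPKM in Ad-Cre, with a log2 fold change of 0.21 (standard error 0.16, adjusted p = 0.403, limma). Lamp1 was at 334, 370.3, 313 and 344 RPKM in Ad-LacZ and at 444, 391, 374 and 364 RPKM in Ad-Cre, with a log2 fold change of 0.22 (standard error 0.15, adjusted p = 0.321, limma). The groups overlapped for both genes, and with quantile normalization both fold changes turned negative, to -0.29 for Psap and -0.14 for Lamp1. Lamp1 thus did not follow Ctsd, which was 1.22 higher. Without regard to a test, 6 of the 30 genes had every Ad-Cre value above every Ad-LacZ value and 1, Scarb2, a receptor that carries β-glucocerebrosidase to the lysosome, had every value below, against 11.8% and 15.9% of all genes.

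Libraries of 1 preparation came from parallel cultures, and once the fit took the preparation as a block, 8 of the 30 genes were higher and 1 lower, where 16.9% of all genes were higher and 17.6% lower. The genes added were Ctsb (adjusted p = 0.038), Ctsh (adjusted p = 0.0444), the acid lipase Lipa (adjusted p = 0.0442) and, as the gene that fell, Sgsh (adjusted p = 0.0469), all from limma with the block. Ctsb was at 101, 99.3, 108 and 96.3 RPKM in Ad-LacZ and at 126, 109, 149.7 and 122 RPKM in Ad-Cre, without overlap. Sgsh was at 3.67, 4.27, 3.27 and 2.55 RPKM in Ad-LacZ and at 3.11, 2.94, 2.45 and 2.05 RPKM in Ad-Cre. It was lower in each preparation although the groups overlapped, and 1891 bases of its span are shared with the gene Card14.

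Within Ad-Cre, Lipa and Ctsh were highest in the libraries with the most macrophage markers. Lipa, which frees cholesterol from its esters, was at 11.1, 10.4, 10.7 and 10.7 RPKM in Ad-LacZ and at 11.1, 11.9, 27.8 and 24.2 RPKM in Ad-Cre, in the order F1, M1, M2 and F2. Ctsh was at 2.32, 1.90, 3.24 and 2.50 RPKM in Ad-LacZ and at 3.15, 1.83, 9.45 and 5.13 RPKM in Ad-Cre. Only M2 and F2 stand out in Ad-Cre for both genes, and these are the libraries with 317 and 274 RPKM of macrophage markers. With F1 and M1 alone, the log2 fold change of Lipa was 0.12 (standard error 0.11, adjusted p = 0.49) and that of Ctsh 0.17 (standard error 0.20, adjusted p = 0.594, both limma). Ctsd was also higher in M2 and F2 than in F1 and M1, with log2 steps of 1.42 and 1.51 against 1.16 and 0.76, while Gla had its larger steps, 1.19 and 1.00, in F1 and M1. In the same fit to F1 and M1, the log2 fold change was 0.95 for Ctsd (standard error 0.16, adjusted p = 0.0248) and 1.08 for Gla (standard error 0.11, adjusted p = 0.0101, both limma). The macrophage markers went from 112 to 118 RPKM in F1 and from 119 to 139 RPKM in M1. These preparations were set apart after their marker sums were seen. Of the 20 macrophage markers, 15 were tested in this comparison and 6 were higher, 11 with the block. Lyz2 and Cd68, both typical of macrophages, were among the 9 that did not pass, and 4 of the 20 were below 1 RPKM in all 4 Ad-LacZ libraries. The part of macrophages in any of these changes was not tested, and the fit to F1 and M1 alone does not test it.

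**Figure D2:**
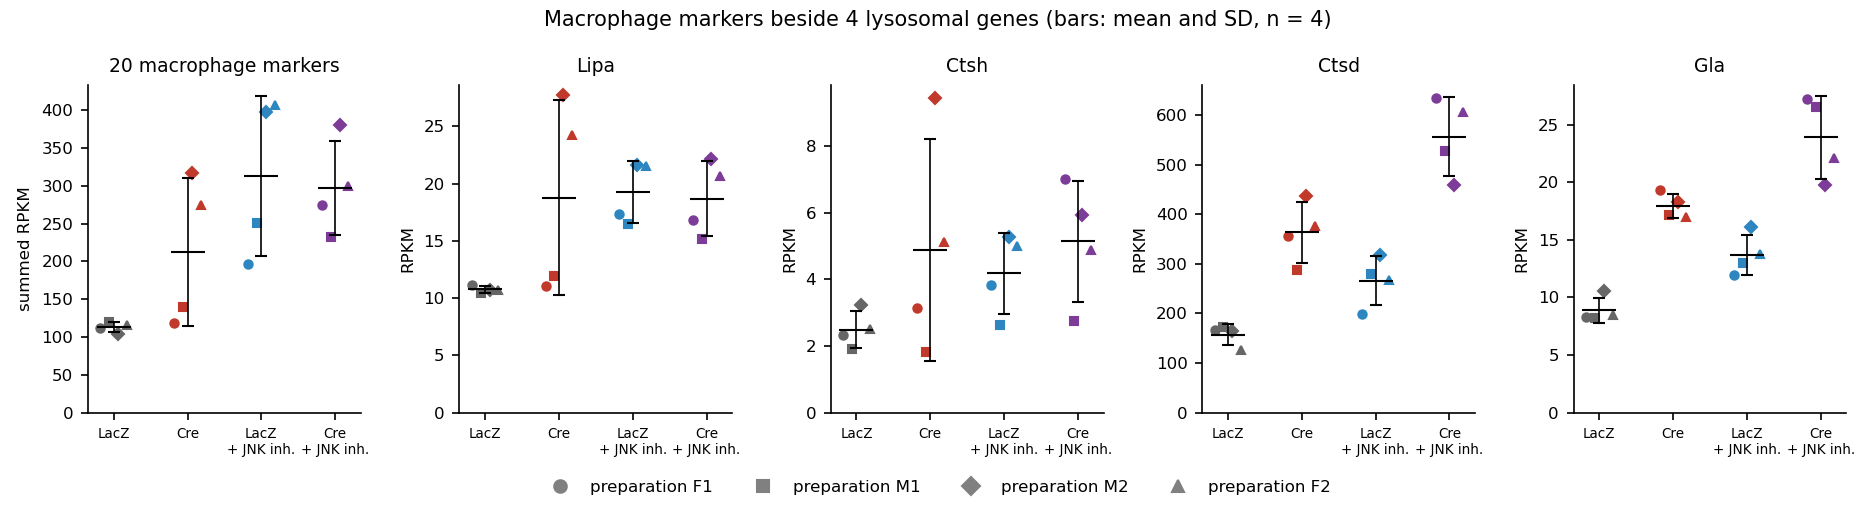
Summed RPKM of 20 macrophage markers and RPKM of Lipa, Ctsh, Ctsd and Gla in the 16 libraries, with 1 symbol per preparation and bars for mean and SD (n = 4). In Ad-Cre, Lipa, Ctsh and the macrophage markers are highest in M2 and F2. Ctsd and Gla are higher in Ad-Cre than in Ad-LacZ in all 4 preparations.

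The second comparison asked what the JNK inhibitor changed in Ad-Cre cultures. With inhibitor, 28 of the 30 genes had a log2 fold change above 0, and their median was 0.38 against -0.02 over all genes. No single gene passed the adjusted p, which was true of all 11503 genes tested (0.0% higher and 0.0% lower). At an unadjusted p under 0.05, 14 of the 30 genes were higher and 0 lower, where 6.15% of all genes were higher and 3.33% lower. In 8 genes every value with inhibitor lay above every value without, and in 0 below, against 1.86% and 9.64% of all genes, which were counted on RPKM as deposited. The deposited values of all genes were lower with inhibitor, with a median of -0.14, and without TMM scaling the median of the 30 genes was 0.24. Within preparations, 20 genes were higher in all 4, 9 were mixed and 1, Sgsh, was lower in all 4.

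Blocking by preparation, 11 of the 30 genes rose and 0 fell, where 3.96% of all genes rose and 2.04% fell. Among the proteases these were Ctsz, Ctsd and Ctsb. Ctsz went from 67.9, 58.0, 105 and 73.9 RPKM in Ad-Cre to 146, 105, 130.3 and 117 RPKM with inhibitor, a log2 fold change of 0.87 (adjusted p = 0.203 without and 0.0241 with the block, limma). Ctsd went from 356, 287, 436 and 375 RPKM to 634, 527, 458 and 606 RPKM, a log2 fold change of 0.76 (adjusted p = 0.21 without and 0.033 with the block, limma). Every library with inhibitor was above every library without for Ctsd, but the step was least in M2, at 0.29 on the log2 scale against 0.82 to 0.99 in the others. Ctsb went from 126, 109, 149.7 and 122 RPKM to 194, 152, 153 and 160.0 RPKM, a log2 fold change of 0.52 (adjusted p = 0.0369 with the block, limma).

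Of the glycosidases, Neu1, Gla, Hexa and Gaa passed with the block. Neu1 went from 28.7, 22.7, 19.0 and 18.9 RPKM to 45.8, 34.9, 24.0 and 26.2 RPKM, a log2 fold change of 0.65 (adjusted p = 0.018 with the block, limma). Its groups overlapped, because F1 and M1 were above M2 and F2 in both, and yet each preparation rose. Gla went from 19.3, 17.2, 18.3 and 17.0 RPKM to 27.2, 26.6, 19.8 and 22.1 RPKM without overlap, a log2 fold change of 0.52 (adjusted p = 0.0309 with the block, limma). The β-hexosaminidase subunit Hexa rose from 101 ± 20.8 to 131 ± 34.6 RPKM and the glycogen-degrading α-glucosidase Gaa from 79.4 ± 19.9 to 105 ± 36.4 RPKM (SD, n = 4 each), with adjusted p of 0.0261 and 0.0476 from limma with the block. Sgsh again went the other way, from 3.11, 2.94, 2.45 and 2.05 RPKM to 2.39, 2.14, 1.52 and 1.26 RPKM, with an adjusted p of 0.0855 in the same fit.

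Among the genes of the membrane and of cholesterol transport, Lamp1 went from 444, 391, 374 and 364 RPKM to 629, 543, 661 and 535 RPKM. No library with inhibitor was below one without, and the log2 fold change was 0.73 (adjusted p = 0.21 without and 0.026 with the block, limma). Npc2 went from 46.5, 36.8, 44.2 and 38.7 RPKM to 66.2, 58.4, 46.6 and 62.4 RPKM, a log2 fold change of 0.62 (adjusted p = 0.031 with the block, limma). Mcoln1, the calcium channel TRPML1 of the lysosome, rose from 4.15 ± 0.403 to 5.32 ± 0.858 RPKM (SD, n = 4 each, adjusted p = 0.0411 with the block, limma). Ppt1, a thioesterase that removes palmitate from proteins, went from 22.7, 23.6, 21.4 and 19.4 RPKM to 30.5, 29.5, 30.9 and 24.9 RPKM and was the only lipid hydrolase to pass with the block (adjusted p = 0.0265, limma). Psap went from 655, 592, 573 and 544 RPKM to 726, 680.2, 477 and 625 RPKM, with a log2 fold change of 0.22 (adjusted p = 0.787, limma) that turned to -0.18 with quantile normalization. In M2 it was lower with inhibitor, unlike in the other preparations.

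Markers of other cell types moved here too. All 7 α cell markers had a log2 fold change above 0, with a median of 0.42, as did all 5 δ and PP cell markers, with a median of 0.56. None of them passed the adjusted p, and with the block 1 of the 7 and 2 of the 5 were higher. Stellate and fibroblast markers went the other way. Of 8 tested, 1 was above 0, with a median of -0.58, and with the block 0 were higher and 1 lower. Of 15 macrophage markers tested, 7 were above 0, with a median of -0.01, and with the block 1 was higher and 0 lower. The summed macrophage markers rose from 118 to 275 RPKM in F1 and from 139 to 232 RPKM in M1, from 317 to 380 RPKM in M2 and from 274 to 299 RPKM in F2. Within this sum, Lyz2 went from 66.4 ± 42.9 to 147 ± 63.1 RPKM (SD, n = 4 each), more than any other marker. Csf1r went from 3.62 to 1.93 RPKM and Cd74 from 6.48 to 1.67 RPKM on average, so that the sum does not stand for the markers as a set. Among the lysosomal genes called with the block, the steps of Lamp1 and Ppt1 were largest in M2. Those of Ctsz, Ctsb, Neu1 and Mcoln1 were largest in F1, those of Ctsd, Gla, Hexa and Gaa in M1 and that of Npc2 in F2. The part of these cell types in the changes was not tested.

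**Figure D3:**
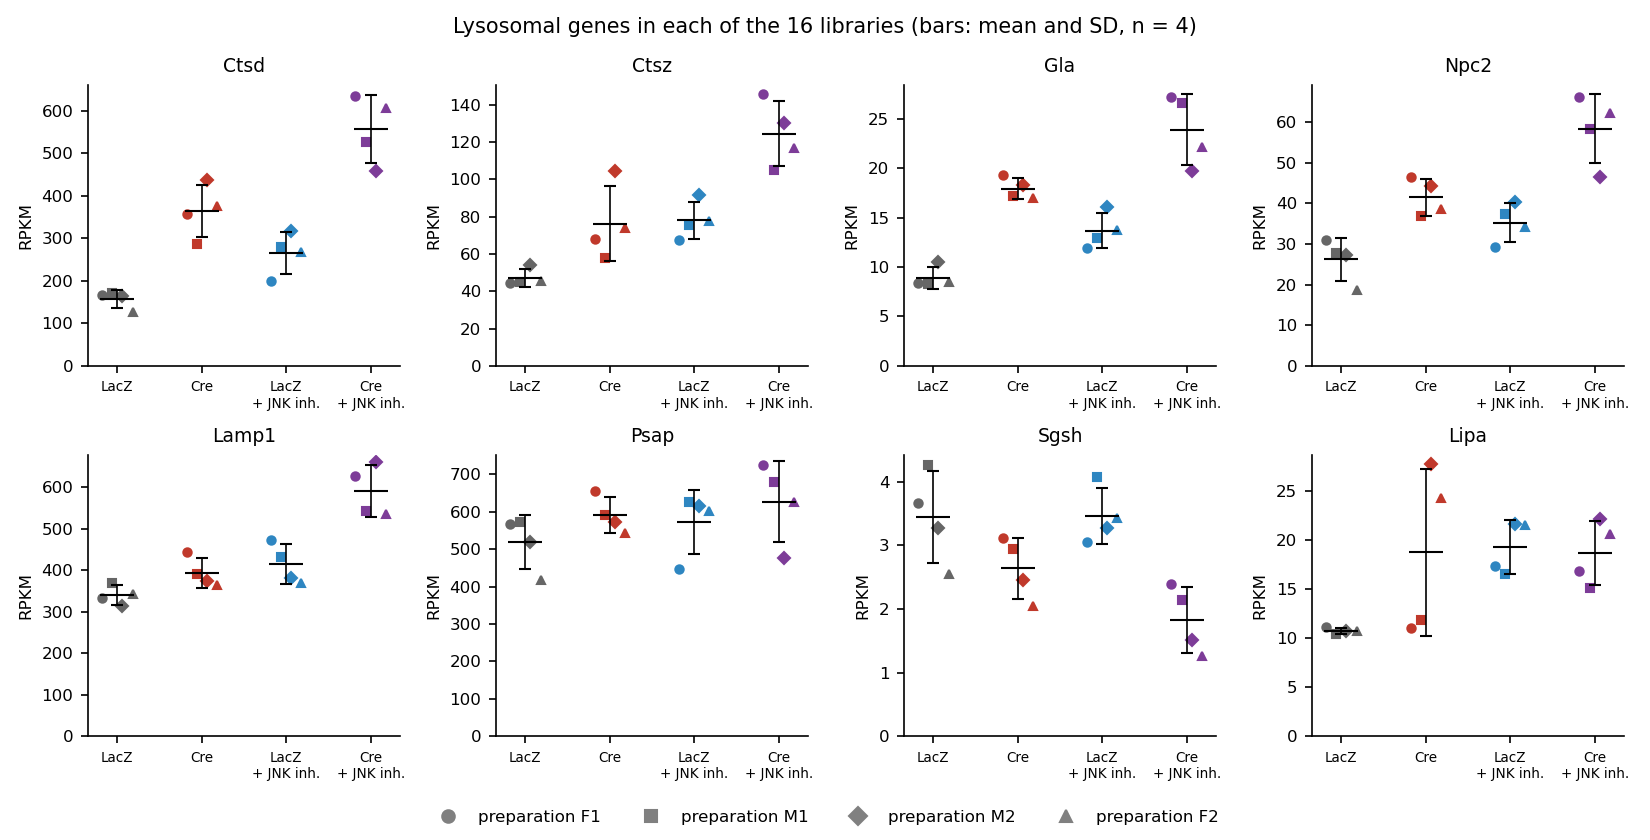
RPKM of 8 lysosomal genes in each of the 16 libraries by group, with 1 symbol per preparation and bars for mean and SD (n = 4). Ctsd, Ctsz, Gla and Npc2 step up with Ad-Cre and again with inhibitor, Lamp1 stands out in Ad-Cre + JNK inhibitor, and Sgsh is lowest there.

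The third comparison set Ad-Cre against Ad-LacZ where both held the inhibitor. The same 4 genes that led without inhibitor, Ctsd, Gla, Npc2 and Ctsz, rose here too, joined by Lamp1, and Sgsh fell. At the adjusted p, 5 of the 30 genes were higher and 1 lower, where 11.7% of all 11598 genes were higher and 11.3% lower, so that the share called was close to that of all genes. The calls of both comparisons shared 4 genes, which is 4 of the 5 without inhibitor and 4 of the 6 with it, in different libraries of the same preparations. The median log2 fold change was 0.27 against -0.03 over all genes, and 0.05 with quantile normalization. Markers of δ and PP cells had a median of 0.87 (5 of 5 above 0, 4 called with the block) and those of α cells 0.53 (6 of 7 above 0). The β cell markers had a median of -0.86 (6 of 12 lower, 9 with the block). Stellate and fibroblast markers had a median of -0.57 (0 of 9 above 0, 5 lower with the block). The part of these cell types in the changes was not tested. In 5 genes every Ad-Cre value lay above every Ad-LacZ value and in 1 below, against 8.93% and 20.7% of all genes on deposited values.

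Ctsd was at 199, 280.0, 317 and 268 RPKM in Ad-LacZ + JNK inhibitor and at 634, 527, 458 and 606 RPKM in Ad-Cre + JNK inhibitor. The rise was 1.20 on the log2 scale (standard error 0.16, adjusted p = 0.00162, limma), nearly that found without inhibitor. Gla was at 11.9, 13.0, 16.1 and 13.7 RPKM against 27.2, 26.6, 19.8 and 22.1 RPKM, a log2 fold change of 0.89 (standard error 0.13, adjusted p = 0.00255, limma). Both genes passed under all 10 alternatives tried, in this comparison and in the first. Npc2 was at 29.2, 37.5, 40.3 and 34.1 RPKM against 66.2, 58.4, 46.6 and 62.4 RPKM, a log2 fold change of 0.84 (standard error 0.14, adjusted p = 0.0036, limma). Ctsz was at 67.6, 75.3, 91.6 and 77.4 RPKM against 146, 105, 130.3 and 117 RPKM, a log2 fold change of 0.80 (standard error 0.14, adjusted p = 0.00539, limma). For Npc2 and Ctsz the adjusted p was 0.0557 and 0.0559 without F2, whose Ad-Cre + JNK inhibitor library was the shallow one with another lane number.

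Lamp1 was at 474, 433, 382 and 369 RPKM in Ad-LacZ + JNK inhibitor and at 629, 543, 661 and 535 RPKM in Ad-Cre + JNK inhibitor. The groups did not overlap, and the rise was 0.65 on the log2 scale (standard error 0.19, adjusted p = 0.039, limma), but it was -0.05 with quantile normalization, and the adjusted p was 0.161 without M1, 0.102 without M2 and 0.159 without F2. Sgsh was at 3.06, 4.07, 3.27 and 3.43 RPKM against 2.39, 2.14, 1.52 and 1.26 RPKM. It fell by 0.58 on the log2 scale (standard error 0.16, adjusted p = 0.0331, limma) in every preparation, and the adjusted p was 0.14 without M1 and 0.134 without F2. Psap was at 446, 625, 615 and 602 RPKM against 726, 680.2, 477 and 625 RPKM, with overlap and a log2 fold change of 0.26 (adjusted p = 0.321, limma), or -0.45 with quantile normalization. The macrophage markers were at 197 to 406 against 232 to 380 RPKM, and 0 of 16 tested passed in either direction. Lipa, at 19.3 ± 2.73 against 18.7 ± 3.25 RPKM (SD, n = 4 each), and Ctsh, at 4.18 ± 1.21 against 5.13 ± 1.82 RPKM, did not pass here either.

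**Figure D4:**
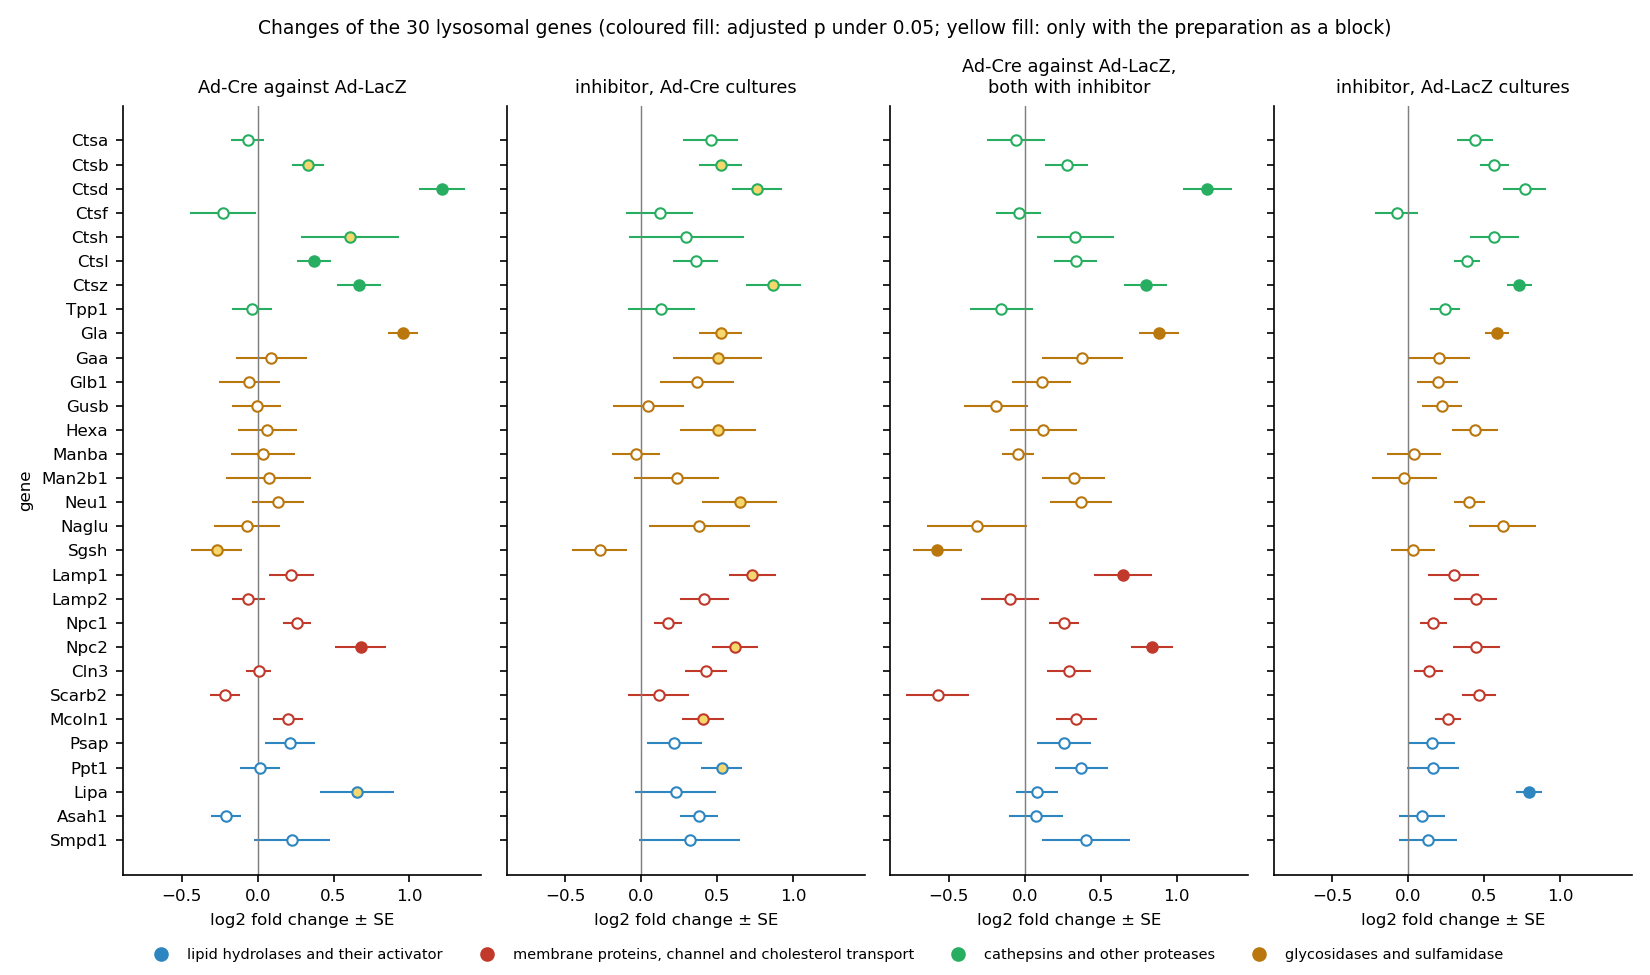
log2 fold change of the 30 lysosomal genes with standard error in the 4 comparisons, with filled points at an adjusted p under 0.05 and yellow points where this held only with the preparation as a block. Ctsd is the gene farthest to the right in both virus comparisons, and in both inhibitor comparisons nearly all genes lie to the right of 0.

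The fourth comparison asked what the inhibitor changed in Ad-LacZ cultures. Lipa, Ctsz and Gla rose, and 28 of the 30 genes had a log2 fold change above 0, with a median of 0.28 against -0.0037 over all genes. At the adjusted p, 3 of the 30 genes were higher and 0 lower, where 0.154% of all 11657 genes were higher and 0.0515% lower. At an unadjusted p under 0.05, 16 were higher and 0 lower, against 3.44% and 2.91% of all genes, and 10 had groups that did not overlap upwards and 0 downwards, against 1.79% and 3.05%. The unadjusted calls of both inhibitor comparisons shared 10 genes, which is 10 of the 14 in Ad-Cre and 10 of the 16 in Ad-LacZ, from separate libraries of the same preparations. These were Ctsa, Ctsb, Ctsd, Ctsl, Ctsz, Gla, Lamp2, Mcoln1, Neu1 and Npc2. The number of such shared calls over all genes was not counted, so it is open whether this overlap is particular to the set.

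Lipa was at 11.1, 10.4, 10.7 and 10.7 RPKM in Ad-LacZ and at 17.3, 16.5, 21.7 and 21.6 RPKM with inhibitor. Its coefficient of variation in Ad-LacZ was 2.62%, and the rise was 0.79 on the log2 scale (standard error 0.09, adjusted p = 0.0207, limma). Ctsz went from 44.1, 44.8, 53.9 and 45.5 RPKM to 67.6, 75.3, 91.6 and 77.4 RPKM, a log2 fold change of 0.73 (standard error 0.08, adjusted p = 0.0207, limma). Gla went from 8.35, 8.25, 10.5 and 8.44 RPKM to 11.9, 13.0, 16.1 and 13.7 RPKM, with steps of 0.55 to 0.60 on the log2 scale in the 4 preparations and 0.59 overall (standard error 0.08, adjusted p = 0.0361, limma). None of the 3 passed without any 1 of the 4 preparations, with adjusted p of 0.122 to 0.382. Ctsd went from 166, 172, 165 and 126 RPKM to 199, 280.0, 317 and 268 RPKM without overlap, a log2 fold change of 0.77 (standard error 0.14) that did not pass (adjusted p = 0.113, limma). Lamp1 went from 334, 370.3, 313 and 344 RPKM to 474, 433, 382 and 369 RPKM (log2 fold change 0.30, adjusted p = 0.925), and Psap from 567, 572, 519 and 417 RPKM to 446, 625, 615 and 602 RPKM (log2 fold change 0.16, adjusted p = 1.00, both limma), of which the latter turned to -0.07 with quantile normalization and to -0.03 in F1 and M1 alone. Among the genes with the smallest changes were the mannosidases Man2b1 (-0.03) and Manba (0.04) and Sgsh (0.03).

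The macrophage markers moved with the inhibitor in these cultures. Their sum went from 104 to 119 RPKM to 197 to 406 RPKM without overlap, 15 of 15 tested had a log2 fold change above 0, and 4 passed the adjusted p, 1 with the block. Within the sum, Lyz2 went from 29.5 ± 4.94 to 151 ± 81.7 RPKM (SD, n = 4 each). Cd68 rose from 6.96 to 17.6 RPKM on average (adjusted p = 0.0207, limma) and Ctss, a cathepsin abundant in macrophages, by 1.01 on the log2 scale (adjusted p = 0.0418, limma). C1qa, a complement gene of tissue macrophages, went from 31.1 ± 2.56 to 54.0 RPKM with an adjusted p of 0.226. Stellate and fibroblast markers had a median log2 fold change of 0.97, against 0.77 for the macrophage markers, with 7 of 7 tested above 0, 3 at an unadjusted p under 0.05 and 1 called with the block. The part of either cell type in the rise of Lipa, Ctsz and Gla was not tested.

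**Figure D5:**
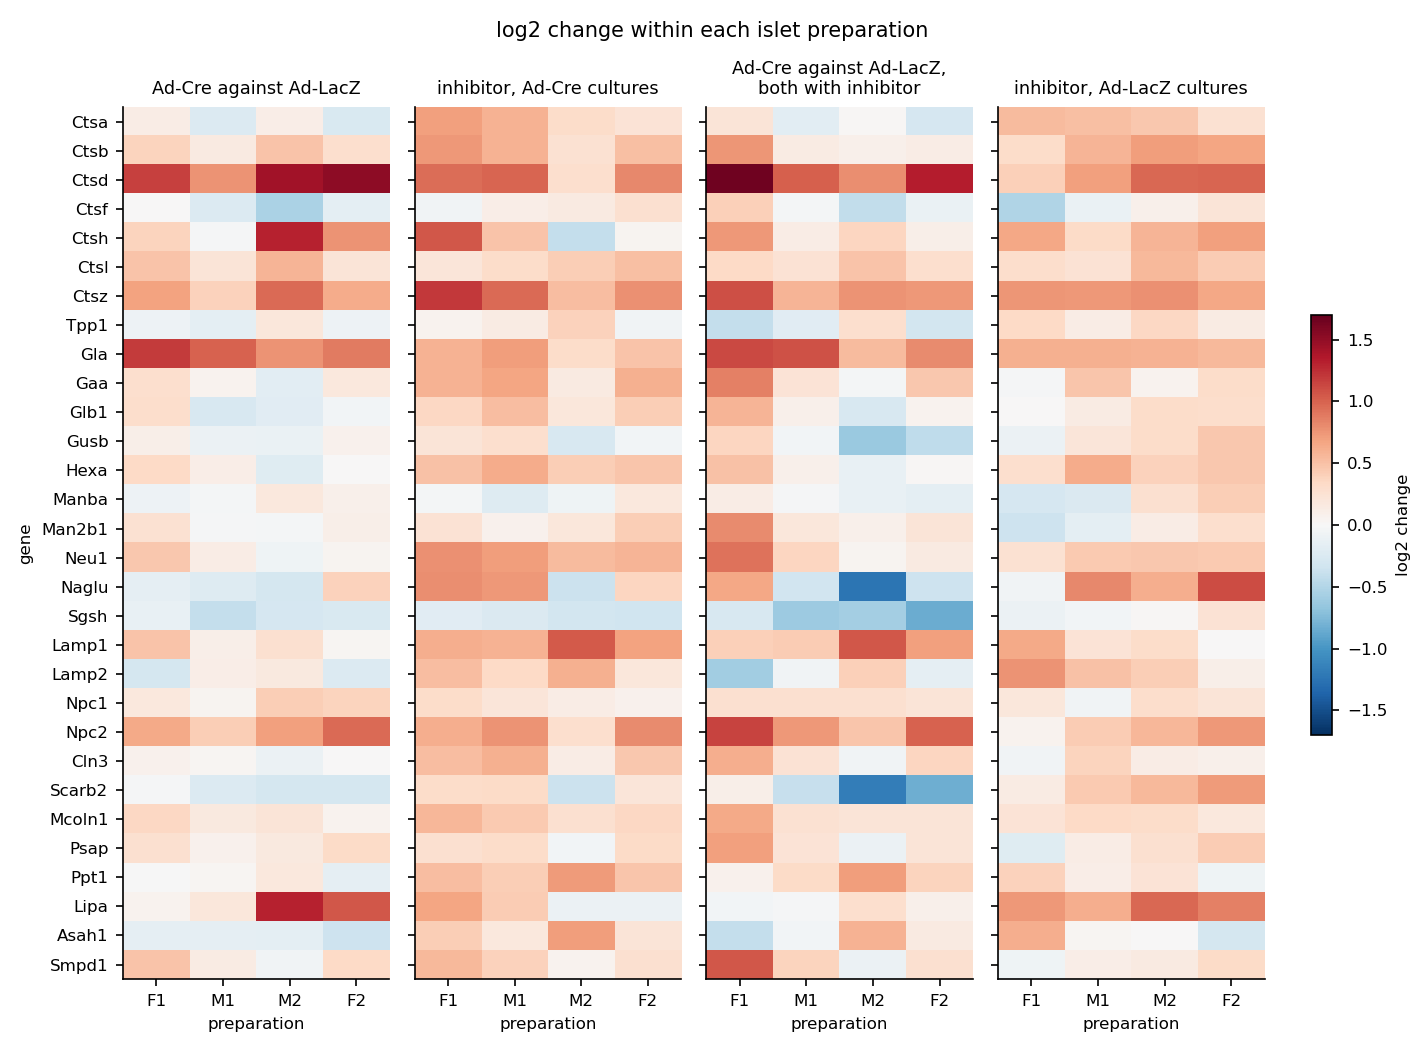
log2 change of the 30 lysosomal genes within each islet preparation (columns F1, M1, M2 and F2) in the 4 comparisons, red for higher and blue for lower. On TMM-scaled values, Ctsd, Ctsl, Ctsz and Gla are red in all 16 columns. Lipa and Ctsh are deep red in M2 and F2 of the first panel, and Naglu and Scarb2 are deep blue in M2 of the third.

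Whether the virus changed these genes differently with and without inhibitor was tested with the interaction over all 16 libraries. None of the 30 genes passed the adjusted p, and 0 had an unadjusted p under 0.05, where 3.48% of all 12274 genes did. When preparations were blocked the unadjusted count was 4, of which Lamp1 and Ppt1 were above 0 and Lipa and Sgsh below, where 11.7% of all genes had such a p in that fit, and 0 passed the adjusted p. For Ctsd the difference was 0.01 on the log2 scale (95% confidence interval -0.45 to 0.47), and for Gla it was -0.05 (-0.41 to 0.31). Differences up to the ends of these intervals remain possible. For Lamp1 the difference was 0.45 (-0.06 to 0.95) and for Lipa -0.55 (-1.16 to 0.05).

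The other genes of the lysosome were described by 5 lists, and the shares over all genes follow with the 5 lists together. Of 24 further hydrolases tested, 3 were higher and 2 lower in Ad-Cre without inhibitor, with a median log2 fold change of 0.11, and with the block 3 were higher and 6 lower. Without it, the 3 were Ctss, Lgmn and Scpep1, and the 2 were Ctso and Galns, named after their values were seen. Ctss is also on the list of macrophage markers. Ids, a sulfatase for dermatan and heparan sulfate and the most abundant of the list, was at 152 ± 16.7 RPKM in Ad-LacZ and 119 ± 20.9 RPKM in Ad-Cre (SD, n = 4 each), and did not pass. With inhibitor in both groups, the median was -0.12, with 1 gene higher and 2 lower, or 4 and 3 with the block. The inhibitor gave 0 calls in Ad-Cre, 5 with the block, and 1 in Ad-LacZ, Ctss, which was lost with the block (adjusted p = 0.0855, limma).

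Of 14 other membrane genes tested, 3 were higher without and 2 with inhibitor in Ad-Cre (3 and 3 with the block), and 0 were lower. The tetraspanin Cd63 passed without inhibitor, from 57.6 ± 9.42 to 72.8 ± 8.04 RPKM, and Laptm4a with it, from 172 ± 15.8 to 214 ± 23.3 RPKM (SD, n = 4 each), while Laptm4b did not pass. Of the 18 V-ATPase subunits, 1 was higher in Ad-Cre without inhibitor, and 5 higher and 1 lower with the block. With inhibitor the calls were 5 upwards and 2 downwards. Their median there was 0.31, and -0.08 with quantile normalization. Atp6v0d1, of the membrane part of the pump, was at 93.8 ± 4.93 against 158 ± 38.7 RPKM there (SD, n = 4 each) and passed, and the accessory subunits Atp6ap1 and Atp6ap2 did not. The inhibitor gave 0 calls among the subunits in Ad-Cre, with 15 of the 18 above 0 and a median of 0.37, and 7 with the block.

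Of the 14 genes for the mannose 6-phosphate tag and for sorting, 2 were higher and 1 lower in Ad-Cre without inhibitor (3 and 2 with the block) and 3 higher and 1 lower with it (4 and 2 with the block). The receptor gene M6pr was at 49.5 ± 4.38 against 60.4 ± 4.70 RPKM with inhibitor (SD, n = 4 each) and passed, and Gnptg, a subunit of the enzyme that makes the tag, and the receptor Igf2r did not. The single fall in both was Vps35, of the retromer that returns receptors from endosomes, named after its values were seen. Of 13 genes tested of the TFEB family and of its mTORC1 regulators, 1 was higher and 2 were lower without inhibitor (2 and 2 with the block) and 3 higher and 1 lower with it (2 and 1 with the block). Lamtor2 and Rragc, which help place mTORC1 on the lysosome, were among the 3, and Lamtor5 was not. Tfe3, a TFEB relative named after its values were seen, was at 5.71, 6.11, 5.57 and 5.56 RPKM on average in Ad-LacZ, Ad-Cre and the same order with inhibitor, and had adjusted p of 0.408 to 1.00 in the 4 comparisons. Over the 5 lists together, 10 of 83 genes were higher and 5 lower without inhibitor and 14 higher and 6 lower with it, next to 5 and 0 and to 5 and 1 of the 30. Of all genes, 8.98% were higher and 10.3% lower without inhibitor, and 11.7% and 11.3% with it. With the block 16 were higher and 11 lower without inhibitor, against 16.9% and 17.6% of all genes. Under inhibitor the blocked counts were 17 and 8, against 1466 and 1416 of all 11598 genes. At the unadjusted p, the inhibitor raised 15 of the 83 and lowered 1 in Ad-Cre, and raised 15 and lowered 0 in Ad-LacZ, next to 14 and 16 of the 30 raised. Of all genes, 6.15% were higher and 3.33% lower at that p in Ad-Cre, and 3.44% and 2.91% in Ad-LacZ.

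The genes were also set side by side by whether the E-box was found before their start. In Ad-Cre against Ad-LacZ, the median log2 fold change was 0.05 over the 12 genes with it and 0.07 over the 14 without, with 3 and 2 called. Under inhibitor the medians were 0.31 and 0.19, with 4 and 2 called. For the inhibitor they were 0.42 and 0.28 in Ad-Cre and 0.28 and 0.32 in Ad-LacZ. These are descriptions of small groups and were not tested.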

How the data were processed

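RNA was measured by poly(A) RNA-seq in 16 libraries, grouped by their labels. The values the authors deposited are RPKM, made from reads aligned to the mouse genome (GRCm38 per the submitters' processing notes). The study's methods cite STAR for the alignment, and the annotation and the use of strand in counting are not given in the sources used here, and 14 of the 30 genes overlap the span of another RefSeq gene, 10 of them that of a protein-coding gene, so their reads may be shared. A further 3 columns with no sample label were not used. RPKM are not counts, so no count test was run. Of the values worth few reads, at least 91.9% were whole reads within 0.05, from which depth was read, and the number of reads sets the precision of each value.

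Values were scaled by unweighted TMM factors computed on RPKM (trim of 30% of ratios and 5% of levels), a gene was kept if 4 or more of the libraries compared exceeded 1 RPKM, and log2(RPKM + 1) was fitted with limma 3.58.1 (eBayes with trend, R 4.3.3), with Benjamini-Hochberg adjustment over all genes tested. All 30 members passed this filter in each comparison. Fold changes on this scale understate those of low genes. Each comparison used only its 2 groups, 4 libraries each, and the interaction all 16. Tables were made with Python 3.11.15 and pandas 2.3.3, and the procedure was tested on simulated data.

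The main fit had no block. Libraries of 1 preparation were parallel cultures, and the residuals of same-numbered libraries correlated at 0.126 to 0.824 over the 4 comparisons, so the preparation number pairs them. Blocked values are given where they change a call of a member or move a count by more than 1.5 times. Alternatives were a pseudocount of 0.1, no filter, RPKM as deposited, quantile normalization, the block and each preparation left out. F1 and M1 alone was added after seeing the data. The members, the 14 gene lists and the tests were chosen with earlier results of these data known. Genes with values in every library are those past the adjusted p without or with the block, up to 8 per comparison by size of change, and the 3 most abundant members. Listed genes are named for the highest mean RPKM, at most 3 per list, and some of these are not reported here.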

Additional observations from a re-analysis of the deposited data

Results flagged for a closer look

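Within groups of 4 libraries, 8 of 120 gene and group pairs had 1 library far from the other 3, by a gap that was a larger share of the whole range than Dixon's critical value at the 95% level, which chance alone gives in about 1 of 20. In Ad-LacZ, Ctsd was at 126 RPKM in F2 against 165 to 172 RPKM (gap 0.841 of the range), Ctsz at 53.9 RPKM in M2 against 44.1 to 45.5 RPKM (0.862) and Gla at 10.5 RPKM in M2 against 8.25 to 8.44 RPKM (0.913). In Ad-LacZ + JNK inhibitor, Psap was at 446 RPKM in F1 against 602 to 625 RPKM (0.8715), Manba at 3.04 RPKM in F1 against 3.77 to 3.86 RPKM (0.891) and Smpd1 at 23.8 RPKM in M1 against 17.7 to 18.2 RPKM (0.920). In Ad-Cre + JNK inhibitor, Tpp1 was at 16.7 RPKM in M2 against 8.20 to 9.38 RPKM (0.861) and Asah1 at 78.6 RPKM in M2 against 58.8 to 60.9 RPKM (0.897).

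Over the 4 comparisons, 4 of 120 gene and comparison pairs moved one way in both preparations labelled F and the other way in both labelled M. All 4 were in Ad-Cre against Ad-LacZ without inhibitor, and these differences were not tested. Neither the rate expected by chance nor the share over all genes was counted. The number therefore does not show a difference between F and M. The mean log2 change in F minus that in M was 0.194 for Gusb, -0.412 for Lamp2, 0.206 for Man2b1 and -0.182 for Ppt1.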

How the results depend on the processing

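Of the values of named genes under the alternatives, 289 kept their direction and side of the threshold, 49 lost and 15 gained a call, and 7 turned direction. With quantile normalization Psap turned to -0.289, -0.181, -0.45 and -0.0723 in the order in which the comparisons are described above, and Lamp1 to -0.14 without and -0.0516 with inhibitor in the virus comparisons. With F1 and M1 alone, Psap turned to -0.032 for the inhibitor in Ad-LacZ. The cause was not tested. The number of members called for the virus without inhibitor was 3 with no filter and 2 with F1 and M1 alone (fewer libraries), and 2 to 3 with 1 preparation left out. Under inhibitor it was 2 to 6 with 1 preparation left out. For the inhibitor in Ad-LacZ it was 0 with RPKM as deposited, 0 with F1 and M1 alone and 0 with any 1 preparation left out. Pairing the libraries by a block moved the count from 5 to 9 for the virus without inhibitor and from 0 to 11 for the inhibitor in Ad-Cre, and left 6, 3 and, for the interaction, 0 elsewhere. For the inhibitor in Ad-Cre, genes higher at the unadjusted p numbered 8 to 13 with 1 preparation left out. The median of the members for that comparison was 0.241 with RPKM as deposited, that for the virus under inhibitor 0.0454 with quantile normalization, and that of the interaction 0.216 with F1 and M1 alone against 0.0491. Medians moved by less than 1 SD between preparations otherwise, although that of the virus without inhibitor was -0.00794 with quantile normalization. Among all genes, the count called for the inhibitor in Ad-Cre went from 0 to 455 higher and 235 lower with the block, and that for the virus without inhibitor from 1041 higher and 1195 lower to 1961 and 2037. Depth limits mainly Sgsh, with 43 reads in its lowest library.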

Other observations

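On RPKM as deposited, the preparations differed in these genes within a group. In Ad-Cre + JNK inhibitor, 17 of the 30 genes were higher in both F1 and M1 than in M2 and F2, and 4 (Asah1, Ctsl, Lipa and Tpp1) were lower. M2 was the lowest library for 16 genes, among them 9 of the 10 in the class of glycosidases and sulfamidase, and the highest for 8, among them Lamp1, Lamp2, Ppt1 and Tpp1. Naglu, which acts on heparan sulfate, was at 28.0, 22.4, 8.27 and 16.2 RPKM in F1, M1, M2 and F2, while Tpp1, a serine protease, was at 8.20, 8.99, 16.7 and 9.38 RPKM. In Ad-LacZ, 14 genes were higher in both F1 and M1 than in M2 and F2, and 4 were lower. These genes were named after their values were seen, and neither pattern was tested.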
